A study of Mus musculus with 12 samples.

Results

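The 8 genes described here, *Dcn*, *Lum*, *Ogn*, *Igf2*, *Slc6a13*, *Slc22a6*, *Islr* and *Aebp1*, are markers of meningeal fibroblasts, the connective tissue cells of the membranes around the brain. They were chosen by name, as a gauge of how much meninges stayed attached to dissected hippocampus, and all 8 were found among the 26409 genes of the deposited table, by Ensembl ID and the GENCODE M21 annotation. Bulk RNA was sequenced from the microdissected hippocampus of adult mice that had been through behavioral testing. Of the 12 libraries, 6 came from *Dek* cKO mice and 6 from wild-type (WT) mice, with 3 females and 3 males in each genotype. The *Dek* cKO line came from a floxed *Dek* allele (*Dek* fl/fl) and a CMV-Cre driver, and, although abbreviated like a conditional knockout, it lacks intact *Dek* in every cell from the germline on; the WT controls carry intact *Dek*. The unit throughout is TPM, the share of transcripts in a library corrected for transcript length, from which the sequencing depth cannot be read, so no counting intervals are given.

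The meninges consist of the dura, the arachnoid and the pia, and fibroblasts build their collagen matrix. The inner layers also form a barrier between blood and cerebrospinal fluid, and their cells carry transporters for amino acids, organic anions and other solutes. The pia lies directly on the hippocampal surface and follows the vessels of the hippocampal fissure, so that some of it comes away with the tissue in a dissection. In bulk tissue, fewer cells of a type and less RNA per cell cannot be told apart.

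*Dek*, the targeted gene, was at 44.2 to 51.9 TPM in the WT libraries and at 5.55 to 9.25 TPM in the *Dek* cKO libraries, and the groups did not overlap. The Y-linked genes *Eif2s3y* and *Ddx3y* went against the sex label in 2 libraries: female cKO 3 held 72.7 and 20.4 TPM, and male cKO 1 held 0.111 and 0 TPM. Library names divide the series as well, since the 3 female WT libraries are named C57 and the other 9 are named CMV. Name prefix therefore cannot be told apart from genotype in females, nor from sex in WT mice. Of neuronal transcripts, 8 general neuron markers summed to 3990 to 4468 TPM and 11 markers of hippocampal neuron types to 395 to 535 TPM. With no other tissue in the series to compare, these sums do not test the tissue label.

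The members fall into a matrix group and a transport group, with a growth factor beside them. *Dcn* encodes decorin, *Lum* lumican and *Ogn* osteoglycin, which belong to the small leucine-rich proteoglycans and bind collagen fibrils. *Aebp1* encodes a secreted collagen-binding protein, and *Islr* encodes meflin, a surface protein of mesenchymal stromal cells. *Slc6a13* encodes the GABA and taurine transporter GAT2, and *Slc22a6* encodes the organic anion transporter OAT1, best known from the kidney. *Igf2* encodes insulin-like growth factor 2, an imprinted gene that in the adult brain is expressed mainly in meninges and choroid plexus.

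*Dcn* (chr10:97479609-97518143, plus strand, mm10) and *Lum* (chr10:97565128-97572703, plus strand) are neighbors on chromosome 10, 47.0 kb apart. *Ogn* (chr13:49608046-49624501, plus strand) is on the chromosome of *Dek*, 2.50 Mb away, in a cluster with the related genes *Omd*, *Aspn* and *Ecm2*. The remaining members lie on separate chromosomes, *Igf2* on chromosome 7, *Slc6a13* on chromosome 6, *Slc22a6* on chromosome 19, *Islr* on chromosome 9 and *Aebp1* on chromosome 11.

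RefSeq promoter windows (GRCm38.p6, 250 bases before to 50 after each transcription start) matched 6 of the 8 members and gave 11 windows. Windows of *Slc6a13*, *Slc22a6* and *Ogn* are shown, since these genes varied most from library to library and carry the same motif near a start. *Slc6a13* has 3 windows and so more chances to hold the motif, which only the window printed here does. Capitals mark GGAATG or its reverse complement CATTCC, the letters bound by TEAD factors. The motif was picked after the sequences had been read. All 3 windows are on the plus strand, at chr6:121300038-121300337, chr19:8617746-8618045 and chr13:49607765-49608064 in that order.
Slc6a13: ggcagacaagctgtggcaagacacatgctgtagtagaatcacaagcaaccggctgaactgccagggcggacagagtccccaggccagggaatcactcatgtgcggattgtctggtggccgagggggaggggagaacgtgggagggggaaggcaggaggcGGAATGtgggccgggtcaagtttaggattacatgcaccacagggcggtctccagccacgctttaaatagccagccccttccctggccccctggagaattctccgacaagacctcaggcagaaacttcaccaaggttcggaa
Slc22a6: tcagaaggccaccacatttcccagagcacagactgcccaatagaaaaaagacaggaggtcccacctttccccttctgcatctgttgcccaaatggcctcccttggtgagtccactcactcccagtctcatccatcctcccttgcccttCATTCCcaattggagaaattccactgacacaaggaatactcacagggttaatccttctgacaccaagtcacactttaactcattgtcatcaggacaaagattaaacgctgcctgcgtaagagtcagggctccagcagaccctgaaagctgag
Ogn: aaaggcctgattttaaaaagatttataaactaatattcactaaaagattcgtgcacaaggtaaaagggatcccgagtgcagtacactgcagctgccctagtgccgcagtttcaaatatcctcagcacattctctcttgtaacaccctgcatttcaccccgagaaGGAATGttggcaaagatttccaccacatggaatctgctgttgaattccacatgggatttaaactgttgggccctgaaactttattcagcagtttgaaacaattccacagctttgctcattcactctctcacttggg
The motif began 91 bases before the transcription start of this *Slc6a13* window, 102 before that of *Slc22a6* and 86 before that of *Ogn*. On either strand it was found in 6 of the 11 member windows, against 14.7% of all 32851 windows of this length. These windows belong to 4 of the 6 genes, the fourth being *Igf2*, which has 4 windows and so more chances to hold the motif. As the motif was picked from these sequences, the counts do not test for an excess. A forkhead motif, TGTTTAC or GTAAACA, was in 0 of the 11 windows and in 3.65% of all windows. The TATA letters TATAAA or TTTATA were in 1 member window, that of *Ogn*, and in 13.6% of all windows. These letter matches are descriptions and show no binding.

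All 8 members were above 0 in every library, and all passed the filter of a mean of 0.1 TPM. *Dcn* and *Igf2* were the most abundant, at 60.6 ± 28.8 and 56.0 ± 26.0 TPM (mean ± SD, n = 12), and did not differ beyond their spread, *Dcn* being the higher in 7 of 12 libraries. *Islr* followed at 12.2 ± 3.06, *Slc6a13* at 11.0 ± 7.48 and *Aebp1* at 10.4 ± 4.29 TPM (SD, n = 12). *Igf2* exceeded *Islr* in 12 of 12 libraries, by 2.07 ± 0.59 on the log2 scale (SD), whereas *Islr*, *Slc6a13* and *Aebp1* were within 1 SD of their neighbors in this order. *Ogn* was at 7.01 ± 4.43, *Lum* at 3.63 ± 0.920 and *Slc22a6* at 2.63 ± 2.02 TPM (SD, n = 12). *Aebp1* exceeded *Ogn* in 12 of 12 libraries, by 0.79 ± 0.71 on the log2 scale (SD), whereas *Ogn* over *Lum* and *Lum* over *Slc22a6* differed by less than 1 SD of their difference.

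To ask how far the members differed between animals, levels were compared across the 12 libraries. The ratio of the highest to the lowest library was 12.6 for *Slc22a6*, 9.79 for *Ogn*, 9.05 for *Slc6a13*, 6.59 for *Dcn* and 5.56 for *Igf2*. It was smaller for *Aebp1* at 2.80, *Lum* at 2.59 and *Islr* at 2.37. Ranked by the SD of log2(TPM + 0.1) among the 14160 genes that averaged 1 TPM or more, *Slc22a6* and *Ogn* stood at percentile 97.3 and the least variable member, *Islr*, at percentile 83.6. The members therefore belonged to the more variable genes of these hippocampi.

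The transporter genes showed the pattern most clearly. *Slc22a6* was at 0.744, 4.39 and 5.72 TPM in the female WT libraries, at 2.64, 1.70 and 1.47 in the male WT, at 1.39, 2.44 and 0.886 in the female cKO and at 2.87, 6.82 and 0.540 in the male cKO libraries, each in the order of replicates 1, 2 and 3. *Slc6a13* was at 3.26, 15.5 and 19.4 TPM in the female WT, at 9.53, 8.25 and 7.42 in the male WT, at 6.05, 12.4 and 5.73 in the female cKO and at 11.4, 29.5 and 4.20 in the male cKO libraries. For both genes male cKO 2 was highest, female WT 3 and female WT 2 came next, and female WT 1 and male cKO 3 were the lowest. Low and high libraries thus occurred within 1 group, and the genotypes overlapped.

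Among the proteoglycans, *Dcn* was at 49.4, 73.7 and 66.0 TPM in the female WT, at 62.2, 90.3 and 50.9 in the male WT, at 19.9, 53.5 and 53.1 in the female cKO and at 46.7, 131 and 30.2 in the male cKO libraries. *Ogn* was at 5.18, 11.0 and 11.6 TPM in the female WT, at 9.54, 3.91 and 6.73 in the male WT, at 1.98, 6.41 and 1.61 in the female cKO and at 9.24, 15.4 and 1.57 in the male cKO libraries. Both were highest in male cKO 2, but male WT 2, second for *Dcn*, was among the lower libraries for *Ogn*. *Lum* ranged from 3.08 to 4.60 TPM in WT, with a median of 3.93, and from 1.95 to 5.05 TPM in *Dek* cKO, with a median of 3.44. Its lowest values, 1.95 and 2.09 TPM, were those of female cKO 1 and male cKO 3, which were also the lowest for *Dcn*.

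*Igf2* was at 38.1, 61.4 and 69.3 TPM in the female WT, at 62.5, 33.4 and 65.7 in the male WT, at 18.8, 82.7 and 30.4 in the female cKO and at 104, 76.2 and 28.7 in the male cKO libraries. Unlike most members it was highest in male cKO 1 and second highest in female cKO 2. *Aebp1* ranged from 6.53 to 17.9 TPM in WT, with a median of 9.14, and from 6.40 to 17.4 TPM in *Dek* cKO, with a median of 8.55. *Islr* ranged from 7.45 to 15.7 TPM in WT, with a median of 10.9, and from 9.24 to 17.7 TPM in *Dek* cKO, with a median of 12.1.

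**Figure D1:**
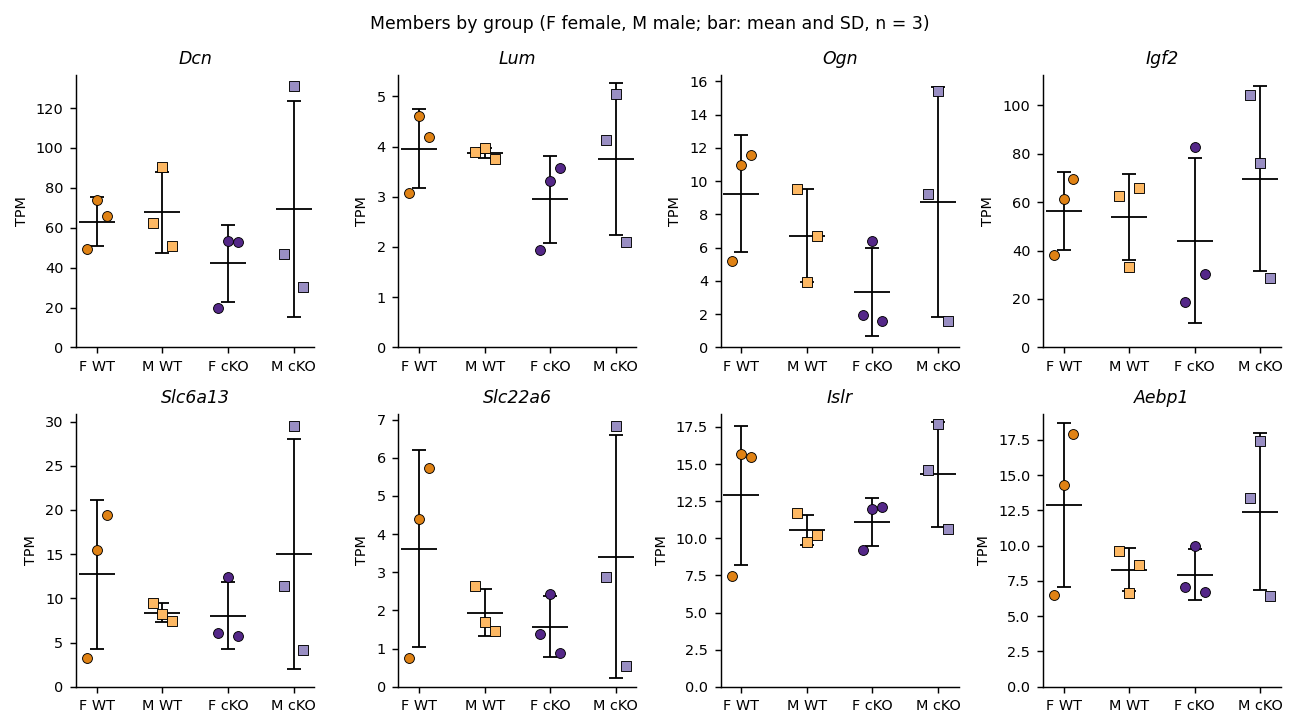
TPM of each member (y axis, linear, from 0) in the 3 libraries of each group (F female, M male), with the group mean and SD (n = 3). The 3 male cKO points span nearly the whole range of most members, from 0.540 to 6.82 TPM for *Slc22a6*, and the genotypes overlap in all 8 panels.

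To summarize the members, each gene's log2(TPM + 0.1) was centered on its own median over the 12 libraries and the 8 values of a library were averaged into a members score. The score was highest in male cKO 2, at 1.01, where 6 of the 8 members had their maximum, and was 0.67 in female WT 3 and 0.54 in female WT 2. It was lowest in male cKO 3 at -1.03, female cKO 1 at -0.94, female WT 1 at -0.67 and female cKO 3 at -0.65. The other 5 libraries lay between -0.24 and 0.35. By group it was 0.18 ± 0.74 in female WT, -0.07 ± 0.21 in male WT, -0.49 ± 0.55 in female cKO and 0.11 ± 1.04 in male cKO (SD, n = 3 each). Summed over the members, 66.3 TPM in female cKO 1 and 299 TPM in male cKO 2 were the extremes.

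Whether loss of *Dek* changed the members was tested with limma on log2(TPM + 0.1) over 18197 genes, with Benjamini-Hochberg adjustment over all of them. The call required both an adjusted p under 0.05 and a fold change over 1.2. With both sexes together 27 genes passed, 0.148% of those tested, and 0 of the 8 members did. At an unadjusted p under 0.05, 1208 genes (6.64%) and 0 members were found. The levels of WT and *Dek* cKO libraries overlapped for all 8 members, as against 123 genes (0.676%) whose genotypes did not overlap.

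Of the single members, *Ogn* had the estimate farthest from 0, a log2 fold change of -0.83 (SE 0.55, limma adjusted p = 0.864), with a 95% interval from -2.01 to 0.34. *Dcn* had -0.45 (SE 0.35) and *Lum* -0.29 (SE 0.21), while *Slc22a6* had -0.30 (SE 0.58) and *Igf2* -0.17 (SE 0.39). *Aebp1* at -0.06, *Slc6a13* at 0.02 and *Islr* at 0.13 were near 0. The median over the members was -0.23, beside 0.016 over all genes tested. The intervals were wide: for *Slc22a6* the interval ran from -1.54 to 0.94, and so held differences of over 1 log2 unit downward. The median came to -0.38 without male cKO 1, to -0.01 without male cKO 3 and to -0.09 with the 9 CMV-named libraries alone.

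In females, 3 genes passed (0.0165%) and 0 members did, in a fit of all 4 groups that shares 1 estimate of the spread. All 8 estimates were below 0, with a median of -0.59 beside 0.015 over all genes. Because the members vary together across libraries, these signs are not independent of each other. *Ogn* had a log2 fold change of -1.63 (SE 0.75, limma unadjusted p = 0.0532 and adjusted p = 0.852), from 9.25 ± 3.54 TPM in female WT to 3.33 ± 2.67 TPM in female cKO (SD, n = 3 each). The estimates of the other 7 lay between -0.86 for *Slc22a6* and -0.14 for *Islr*. The median was -0.94 without female WT 1, -0.23 without female cKO 1 and -0.51 without both libraries whose Y-linked genes go against their label. At an unadjusted p under 0.05, 1053 genes (5.79%) and 0 members were found.

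In males, 3 genes passed (0.0165%) and again 0 members did. The estimates were above 0 for 5 members and below 0 for *Dcn*, *Lum* and *Ogn*, with a median of 0.25 beside 0.020 over all genes. The largest was that of *Aebp1*, 0.47 (SE 0.40, limma adjusted p = 0.917), from 8.30 ± 1.53 TPM in male WT to 12.4 ± 5.55 TPM in male cKO (SD, n = 3 each). This median rested on single libraries, since it was -0.32 without male cKO 2, 0.84 without male cKO 3 and 0.01 without both libraries of conflicting sex. At an unadjusted p under 0.05, 992 genes (5.45%) and 0 members were found.

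**Figure D2:**
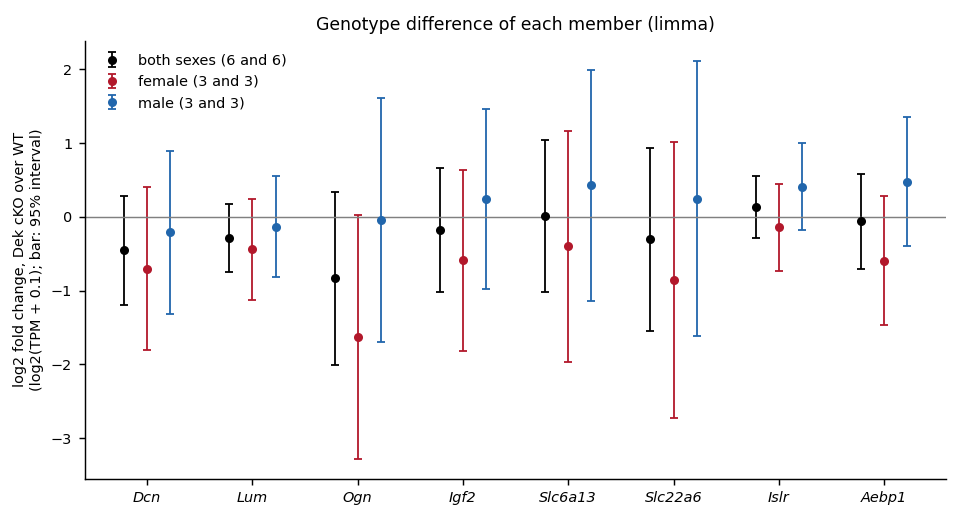
Log2 fold change of each member, *Dek* cKO over WT (y axis, log2(TPM + 0.1) scale), with both sexes together (6 and 6 libraries) and in females and males (3 and 3 each). Bars are 95% intervals from limma, all of which include 0; the interval nearest to leaving it out is that of *Ogn* in females, -3.28 to 0.03.

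The difference between the sexes was tested itself. Neither a member nor any other gene passed for the interaction of genotype and sex, and 770 genes (4.23%) but 0 members had an unadjusted p under 0.05. All 8 member estimates, female minus male genotype difference, were below 0, from -0.31 for *Lum* to -1.59 for *Ogn*, with a median of -0.83 beside -0.007 over all genes. That median was -1.43 without male cKO 3 and -0.36 without male cKO 2. Female cKO 3 and male cKO 1, whose Y-linked genes go against their label, were kept in their labelled groups for this contrast. Grouped by these genes instead, the members scores would be -0.94, 0.13 and 0.35 in female cKO and -0.65, 1.01 and -1.03 in male cKO. The female and male cKO scores would then differ less, so the contrast depends in part on these labels. That grouping was not tested. Because the members vary together, the 8 signs are not independent of each other. *Aebp1* had the smallest p, 0.0828 (limma adjusted p = 0.966), at -1.07 (SE 0.56). Between WT males and WT females 0 genes passed, 660 (3.63%) had an unadjusted p under 0.05, none of them a member, and the median of the members, male minus female, was -0.23 beside -0.012 over all genes. It was -0.69 without female WT 1 and 0.03 without female WT 3. *Eif2s3y* was not called here, though it was at 0.209 to 0.993 TPM in female WT and at 72.4 to 92.0 TPM in male WT. The fit shares its estimate of the spread with the *Dek* cKO groups, which hold the libraries of conflicting sex. The 0 calls between WT sexes therefore do not show that no gene differed.

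To ask whether the members varied together, the libraries were compared pair by pair of genes. For each of the 28 pairs of members, Pearson's r of log2(TPM + 0.1) was computed over the 12 libraries with a two-sided permutation test and adjusted over the 28 pairs. All 28 r were above 0, with a median of 0.74 and a range from 0.54 to 0.97, and 25 pairs passed an adjusted p of 0.05. Spearman's rho had a median of 0.78 and 23 pairs passed. All values of a library share its TPM denominator and its dissection, and these p-values concern association across libraries, not genotype.

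*Slc6a13* and *Slc22a6*, the transporter genes, had the closest tie, with r = 0.97 and rho = 0.97 (permutation p = 1e-05 for each, the smallest the resampling can give, adjusted p = 9.33e-05 and 0.000280). Without the 2 libraries farthest from the median of *Slc6a13* r was 0.98. *Slc22a6* and *Aebp1* had r = 0.94 and rho = 0.94 (permutation p = 1e-05 and 4e-05, adjusted p = 9.33e-05 and 0.000373), and 0.93 without the 2 farthest. The neighbors *Dcn* and *Lum* had r = 0.90 and rho = 0.79 (permutation p = 0.0001 and 0.00310, adjusted p = 0.000672 and 0.00723), and 0.81 without the 2 farthest.

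*Dcn* was the loosest member. Its r was 0.55 with *Igf2* (permutation p = 0.0623, adjusted p = 0.0671), 0.54 with *Islr* (p = 0.0673, adjusted p = 0.0698) and 0.54 with *Aebp1* (p = 0.0715, adjusted p = 0.0715), and these are the 3 pairs that did not pass. Their rho were 0.35, 0.55 and 0.52 (permutation p = 0.267, 0.0707 and 0.0891, adjusted p = 0.267, 0.0762 and 0.0924). Without the 2 libraries farthest from the median of *Dcn* they fell to r of 0.14, 0.21 and 0.30, so what relation there was rested on those libraries. The median r over its 7 pairs was 0.63 for *Dcn*, beside 0.85 for *Aebp1* and 0.82 for *Slc22a6*.

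The ties were seen within the divisions of the series too. The median r of the 28 pairs was 0.73 within the 9 CMV-named libraries, 0.84 within the 6 *Dek* cKO libraries and 0.76 within the 6 WT libraries. All 28 r were above 0 in the CMV-named and in the *Dek* cKO libraries, and 26 were in WT. The exceptions in WT were *Dcn* with *Igf2*, at -0.28, and *Dcn* with *Ogn*, at -0.09; in male WT 2, *Dcn* was at 90.3 TPM while *Igf2* and *Ogn* were the lowest of the WT libraries.

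**Figure D3:**
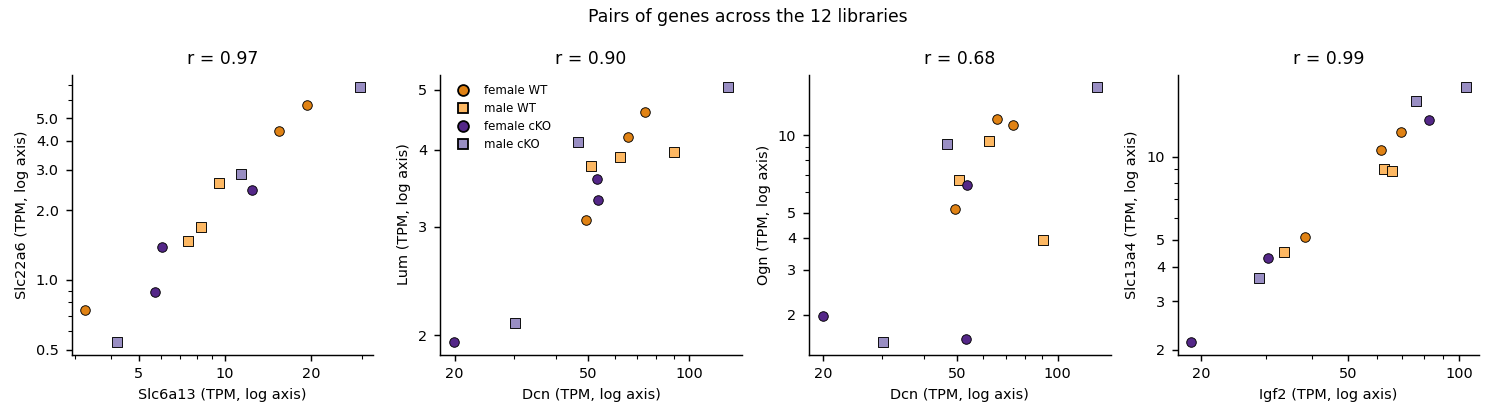
Levels of 4 pairs of genes in the 12 libraries (TPM on log axes; circles female, squares male, orange WT, purple *Dek* cKO). *Slc6a13* with *Slc22a6* (r = 0.97) and *Igf2* with *Slc13a4* (r = 0.99) form narrow bands, whereas *Dcn* with *Lum* (r = 0.90) and *Dcn* with *Ogn* (r = 0.68) scatter more widely.

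Genes that varied most like the members were found by their r with the members score, over the 14152 other genes averaging 1 TPM or more. These r are descriptions over 12 libraries and carry no test. The 10 highest were *Slc6a20a* and *Olfml2a* at 0.97, *Colec12*, *Mrc1*, *Scn7a* and *Ptgds* at 0.96, and *Mpzl2*, *Fmod*, *Gjb2* and *Fbln1* at 0.95. *Slc6a20a* encodes a proline transporter, *Gjb2* the gap junction protein connexin 26, *Fmod* the proteoglycan fibromodulin and *Fbln1* the matrix protein fibulin 1. *Mrc1* encodes the mannose receptor, which in the brain marks macrophages of the meninges and of the spaces around vessels. *Colec12* encodes a scavenger receptor, and *Scn7a* an atypical sodium channel.

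*Ptgds*, the prostaglandin D synthase secreted into cerebrospinal fluid, was by far the most abundant of these, at 404 TPM in female WT 1 and 3061 TPM in male cKO 2. *Fmod* was at 1.52 TPM in male cKO 3 and at 20.9 TPM in male cKO 2, a ratio of 13.7, wider than that of any member. In all, 57 genes (0.403%) had an r of at least 0.8, and their summed level ran from 736 TPM in male cKO 3 to 3744 TPM in male cKO 2. Without *Ptgds* the sum of the other genes ran from 311 to 684 TPM. The list also held *Aldh1a2*, the retinoic acid synthesizing enzyme, at r = 0.93, the bone morphogenetic protein genes *Bmp6* at 0.92, *Bmp7* at 0.89 and *Bmp5* at 0.86, and *Cp*, the copper protein ceruloplasmin, at 0.93. Apart from *Aldh1a2*, these were chosen after the values had been seen.

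At the other end, ENSMUSG00000092486, for which no symbol was matched, had r = -0.89 and is listed at 0 in 5 libraries. *Adcy2*, an adenylate cyclase, and *Plag1* had -0.85, *N4bp3* -0.84 and *Mterf3* -0.83. *Adcy2* went from 52.8 TPM in male cKO 2 to 64.3 TPM in male cKO 3 and *N4bp3* from 8.40 to 19.8 TPM in the same libraries, at opposite ends from the members.

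**Figure D4:**
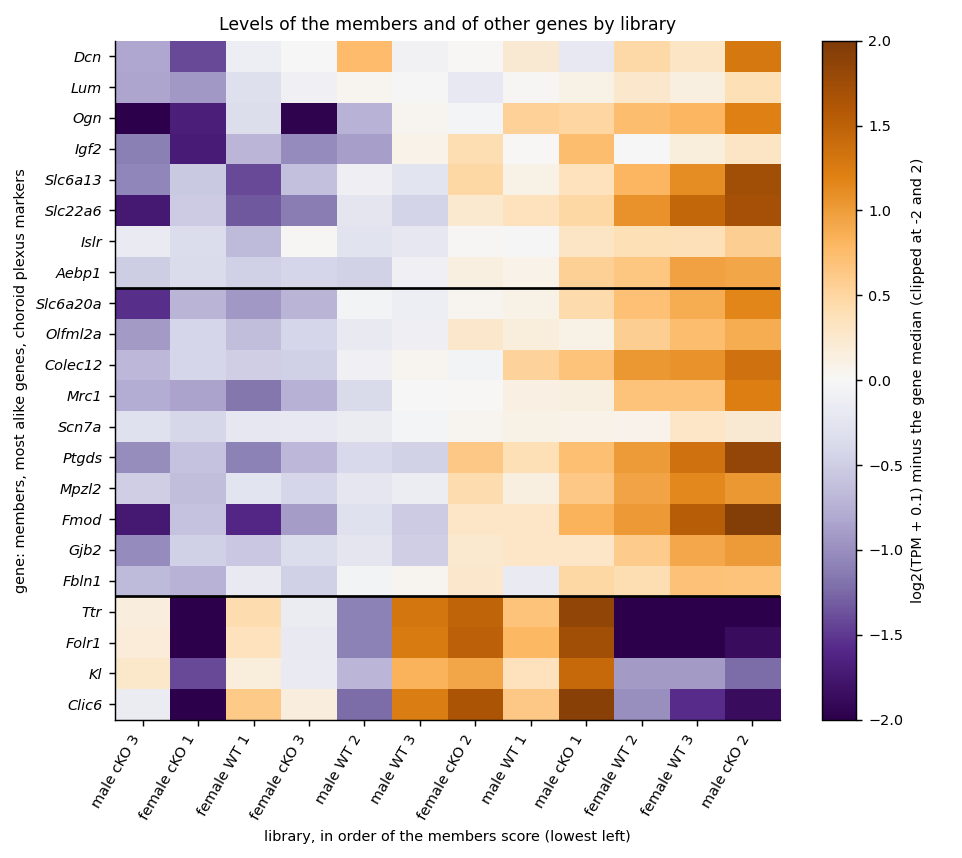
Log2(TPM + 0.1) minus the gene's median (color, clipped at -2 and 2) for the 8 members, the 10 genes most like them and 4 choroid plexus markers, in the 12 libraries ordered by the members score. The members and the genes like them run from low in male cKO 3 to high in male cKO 2, and the choroid plexus markers do not follow that order.

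Of the other meningeal and fibroblast genes, a list of 32, 25 reached a mean of 1 TPM and 12 of these had an r of at least 0.8 with the members score, against 0.403% of all genes. Besides *Gjb2*, *Fbln1* and *Aldh1a2* they were *Slc47a1*, *Tbx18*, *Slc13a4*, *Foxc1*, *Asgr1*, *Col1a2*, *Efemp1*, *Pdgfra* and *Col1a1*. *Foxc1* and *Tbx18* encode transcription factors of mesenchymal cells, and *Col1a1* and *Col1a2* encode the chains of type I collagen. Averaged in the same way, the 32 genes had an r of 0.94 with the members score, and 0.92 within the CMV-named libraries. None of the 32 was called for genotype in either sex or in both. Their median log2 fold change was 0.05 with both sexes together, -0.28 in females and 0.45 in males. At an unadjusted p under 0.05 the counts were 1, 1 and 4 genes, all higher in *Dek* cKO, beside 6.64%, 5.79% and 5.45% of all genes.

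Not every gene of the list followed. *Cdh11*, a cadherin, was at 25.1 to 30.9 TPM with r = 0.00. *Igfbp6*, an IGF-binding protein, had r = -0.27 and was highest, at 46.7 TPM, in female cKO 1. It was the gene of the list with an unadjusted p under 0.05 for genotype with both sexes together. Its log2 fold change was 0.68 (SE 0.16, limma unadjusted p = 0.00102, adjusted p = 0.230), and 0.86 in females and 0.50 in males. *Mgp*, the matrix Gla protein and the most abundant gene of the list, was at 29.2 to 79.9 TPM with r = 0.78. *Fbln2*, at 7.01 to 34.2 TPM with r = -0.50, had its maximum in male cKO 3, the library with the lowest members score.

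As a list, the other small leucine-rich proteoglycans had an r of 0.89 with the members score, and 0.88 within the CMV-named libraries. Single genes of the family differed. *Fmod* followed the members at r = 0.95 and *Prelp*, at 5.53 to 23.5 TPM, had r = 0.65, but *Bgn*, which encodes biglycan, had r = 0.22 and was highest in male cKO 3, at 26.5 TPM. *Chadl*, at 10.6 to 15.9 TPM, had r = 0.22 as well. The neighbors of *Ogn* on chromosome 13 differed: with *Ogn* itself, *Omd*, 15.2 kb away, had r = 0.77 and rho = 0.74, *Ecm2*, 75.3 kb away, had r = 0.72 and rho = 0.79, and *Aspn*, 40.5 kb away, had r = -0.56 and rho = -0.69. *Omd* is listed at 0 in 4 libraries and *Aspn* in 1. These pairs were chosen after the values had been seen, so no p-value is printed for them. Of the 14 proteoglycan genes tested, 0 were called for genotype with both sexes together, 0 had an unadjusted p under 0.05, and the median log2 fold change was 0.06.

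Among the 14 transporters of brain barriers, *Slc6a20a*, *Slc22a8*, *Slc47a1* and *Slc13a4* reached r of 0.8 with the members score. *Slc47a1* and *Slc13a4* are also on the list of other meningeal and fibroblast genes, so the lists are not independent. *Slc22a8*, the organic anion transporter related to *Slc22a6*, was at 4.05 to 13.9 TPM and had r = 0.97 and rho = 0.96 with *Slc22a6*. *Slc6a12*, a betaine and GABA transporter, was at 0.968 to 10.9 TPM and had r = 0.86 and rho = 0.85 with *Slc6a13*. *Slc6a11*, a GABA transporter gene of astrocytes, was more abundant and steadier, at 45.8 to 77.5 TPM, and had r = 0.40 and rho = 0.24 with *Slc6a13*. These pairs too were chosen with their values known. For genotype with both sexes together 0 of the 14 were called and 0 had an unadjusted p under 0.05, with a median log2 fold change of -0.04.

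*Igf2* was set beside genes of choroid plexus and of the IGF axis. Its r with the score of the other 7 members was 0.79, and with the list of choroid plexus markers 0.42, whereas the r of the remaining members with that list lay between -0.34 and 0.06. The closest gene examined was *Slc13a4*, a sulfate transporter of meninges and choroid plexus, at r = 0.99 and rho = 0.97. *Igfbp2*, which encodes an IGF-binding protein, was at 23.7 to 89.0 TPM and had r = 0.85 and rho = 0.80 with *Igf2*. With *Ttr*, the main choroid plexus transcript, *Igf2* had r = 0.24 and rho = 0.45. Again the pairs were chosen after their values were seen. Of the 20 genes of the IGF axis that were tested, 0 were called for genotype with both sexes together, and the median log2 fold change was -0.01. At an unadjusted p under 0.05, 1 was higher, again *Igfbp6*, beside 6.64% of all genes. *Igf1r*, the receptor gene, stayed within 12.3 to 16.0 TPM.

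Genes of fibrillar matrix followed the members less closely, with an r of 0.61 for the list of 23 and of 0.48 within the CMV-named libraries. Of the 20 that averaged 1 TPM or more, only *Col1a2* and *Col1a1*, counted above among the meningeal and fibroblast genes, had an r of at least 0.8. The most abundant, *Col6a1*, a type VI collagen chain, was at 19.0 to 61.8 TPM with r = -0.02. None of the 23 was called for genotype with both sexes together, in females or in males. At an unadjusted p under 0.05, 3 were higher in *Dek* cKO with both sexes together, beside 6.64% of all genes. In females 1 was higher and 1 lower, beside 5.79%, and in males 5 were higher, beside 5.45%. The median log2 fold change was 0.11 with both sexes together, -0.08 in females and 0.40 in males.

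Markers of the other cell types that a hippocampal dissection can hold were set beside the members. The 13 choroid plexus markers had the widest range of any list, their score spanning 4.57 log2 units, with *Ttr* at 37.5 TPM in female cKO 1 and 4289 TPM in male cKO 1. Their r with the members score was -0.11, and 0 of the 13 reached 0.8. Male cKO 2, female WT 3 and female WT 2, the highest for the members, were among the 4 lowest for choroid plexus, whereas female cKO 1 was low for both. Border macrophage markers, of which 3 of 8 reached a mean of 1 TPM, had r = 0.87; their sum was 3.58 to 8.98 TPM in WT and 4.28 to 12.7 TPM in *Dek* cKO. The r were 0.44 for endothelium, 0.31 for mural cells and 0.35 for blood, and 0 endothelial and 0 blood genes reached 0.8, while *Vtn* did among mural genes. *Vtn* encodes vitronectin and is also expressed by other cells.

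For brain cells, the r with the members score were -0.40 for neurons, -0.11 for hippocampal neuron subtypes, -0.37 for astrocytes, 0.21 for oligodendrocytes, 0.42 for oligodendrocyte precursors, 0.28 for microglia and 0.45 for ependyma. Within the 9 CMV-named libraries the r was -0.84 for neurons and -0.54 for astrocytes, and without the 2 libraries of most extreme members score it was -0.02 and -0.07. The neuron score spanned 0.18 log2 units over the 12 libraries, beside 2.04 for the members. No neuronal, astrocytic, microglial, oligodendrocytic or ependymal marker had an r of 0.8 or more; among precursor markers *Pdgfra*, which fibroblasts also express, did.

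**Figure D5:**
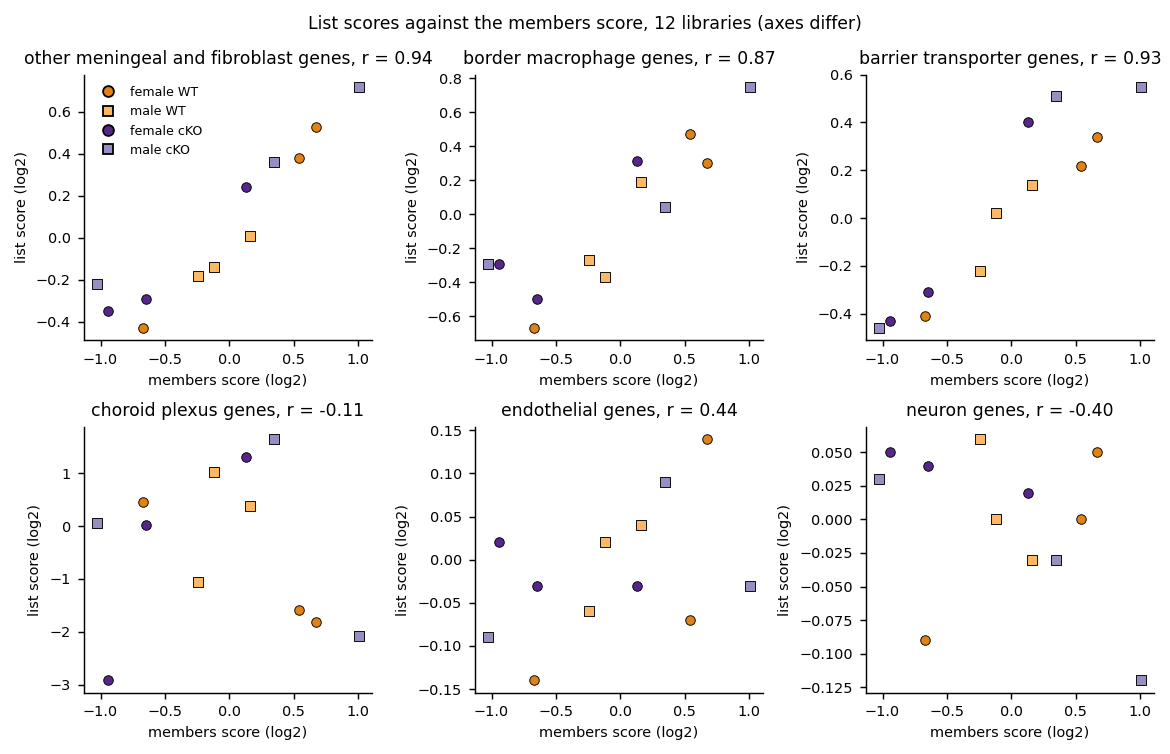
Scores of 6 gene lists (y axes, log2, scales differ between panels) against the members score (x axis, log2) in the 12 libraries. Other meningeal and fibroblast genes rise with the members (r = 0.94), as do border macrophage (r = 0.87) and barrier transporter genes (r = 0.93). Choroid plexus genes do not (r = -0.11). The meningeal and the transporter lists share some genes.

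Since the members varied within groups, the genotype comparison was repeated with the members score as a covariate. Of the 27 genes called with both sexes together 17 were called in both fits, 10 only without the score and 0 only with it. They included *Dek*, *Col7a1*, *Gm15319*, *A3galt2*, *Ovgp1*, *Ackr1*, *Ccl25*, *Perm1*, *Serpinb6e*, *Fam83h*, *Mau2*, *Dpm1*, *Tmc4*, *Clic3*, *Mylk3* and *Sfn*. The log2 fold changes moved little, among the 10 as among the 17: that of *Sds*, which was called only without the score, went from 1.58 to 1.57 (limma adjusted p = 0.0235 and 0.0537) and that of *Hcrt* from -2.29 to -2.35 (adjusted p = 0.0319 and 0.0518). Among the 17, that of *Col7a1*, a collagen gene of the skin, went from 2.31 to 2.32 and that of *Mylk3* from 1.33 to 1.26, and these genes had an r with the members score between -0.41 and 0.26. Of the 57 genes most like the members, 0 were among the 27, beside 0.148% of all genes tested. At so small a share, a count of 0 among 57 genes says little.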

How the data were processed

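Hippocampal RNA of 12 mice was sequenced from poly-A selected libraries. The authors deposited 1 table of TPM values, 1 column per library. Its processing notes name kallisto and mm10, the study's methods name STAR, Salmon and tximport, and which of these made the table is not given in the sources used here. The listed values summed to 825750 to 845553 TPM per library and hold no depth. Ensembl IDs were named with GENCODE M21 (25245 of 26409 matched). Groups were taken from the sample labels. Replicates are labelled as separate samples, and no pair of columns shared more than 0.00524% of values above 0.

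Values were analyzed as log2(TPM + 0.1) for 18197 genes averaging 0.1 TPM or more, with limma 3.58.1 in R 4.3.3 (trend, two-sided, Benjamini-Hochberg over all genes tested). Fold changes are on this scale and understate changes of low genes. The study's count test could not be applied to TPM. Correlations used numpy 2.4.6, with ranks from scipy 1.17.1 and 100000 permutations, and likeness was taken over genes averaging 1 TPM or more. The limma fit, for both sexes together, females and the interaction, and the likeness ranking were tested on simulated data. The members, the 18 gene lists and the tests were chosen with earlier results of these data known. Genes named are the 8 members, *Dek*, *Eif2s3y* and *Ddx3y*, the 10 genes most and 5 least like the members, list genes that were called or, as examples, among the 4 most abundant of their list, and genes called with and without the members score; any other gene was named after its values were seen, and some genes that the rule names are not reported here. Alternatives covered the pseudocount (0.5 and 1 TPM), the filter, rescaling, quantile normalization, the variance prior, a replicate block, sex as a covariate, the name prefix, conflicting sex labels and each library left out. Promoter windows came from RefSeq (GRCm38.p6).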

Additional observations from a re-analysis of the deposited data

Results flagged for a closer look

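Of 18 sets of 6 libraries tested (the 8 members and their score, in each genotype), 3 held a library whose distance from the nearest other exceeded the 95% limit of Dixon's test, which by chance marks about 1 set in 20. All 3 were the *Dek* cKO libraries with male cKO 2 highest. There *Dcn* was at 131 TPM and the other 5 at 19.9 to 53.5 TPM. *Slc6a13* was at 29.5 TPM, with the others at 4.20 to 12.4 TPM. *Slc22a6* was at 6.82 TPM, with the others at 0.540 to 2.87 TPM. The members rise and fall together, so the 3 marks are not independent of each other. The marks rest on TPM values, and the log2 scale used elsewhere draws such high values closer to the others.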

How the results depend on the processing

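No alternative called a member, in 106 counts, and the smallest adjusted p of a member was 0.437 by limma, that of *Dcn* with both sexes together and without male cKO 2. The number of genes called for genotype with both sexes together (27) was 17 with no filter, 17 with the members score as a covariate, 16 without both libraries of conflicting sex and 8 with the CMV-named libraries alone, and 13 to 27 with single libraries left out (15 without female cKO 1, 13 without female cKO 2, 17 without male cKO 1). In females (3) it was 7 with no trend in the variance prior, 11 without the conflicting libraries and 1 to 7 with single libraries left out. In males (3) it was 6 with no filter, 6 with no trend, 7 without the conflicting libraries and 2 to 7 with single libraries left out. For the interaction (0) it was 2 under each of these 3 settings and 0 to 1 with single libraries left out; between WT sexes (0) it was 3, 3 and 4, and 0 to 1. The cause was not tested.

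With same-numbered libraries of 1 sex paired as a replicate block, the counts were 3 with both sexes together, 1 in females and 1 in males. The deviations of same-numbered libraries had correlations of -0.04 to 0.04, so the numbers gave no sign of pairing.

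Of 688 alternative fold changes of single members 32 had the opposite sign. With both sexes together that of *Slc6a13* was -0.0014 after median ratio rescaling and -0.32 to 0.24 with single libraries left out, that of *Aebp1* 0.20 in the CMV-named libraries and -0.23 to 0.11, that of *Igf2* -0.40 to 0.09 and that of *Slc22a6* -0.67 to 0.01. In females *Islr* ran from -0.49 to 0.04 and *Slc6a13* from -1.19 to 0.08. In males *Ogn* was 0.0013 and 0.04 with pseudocounts of 0.5 and 1 TPM and ran from -0.70 to 0.91 with single libraries left out, *Igf2* was -0.14 without the conflicting libraries and ran from -0.14 to 0.79, *Dcn* from -0.81 to 0.25, *Lum* from -0.38 to 0.23, *Slc22a6* from -0.52 to 1.19 and *Slc6a13* from -0.26 to 1.13. The interaction of *Dcn* ran from -0.94 to 0.12. The median r of the member pairs was 0.70 to 0.77 with single libraries left out. Of the 10 genes most like the members, 9 were shared when rho was used and 2 when a mean of 10 TPM was required, which only 2 of the 10 reach.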

Other observations

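Some matrix genes stood highest in male cKO 3, the library with the lowest members score. *Lox*, which encodes the collagen cross-linking enzyme lysyl oxidase, was at 3.37 TPM there and lowest, at 0.123 TPM, in female WT 1. *Loxl1*, a related enzyme gene, was at 7.72 TPM and *Col3a1*, a fibrillar collagen gene, at 2.22 TPM. *Nupr1*, a stress-induced gene, at 22.1 TPM, and *Cd163*, a scavenger receptor gene of border macrophages, at 2.21 TPM, were also highest in male cKO 3. These were picked with their values in view.

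The genes of IGF2 mRNA-binding proteins were highest in female WT 1, a library with a low members score: *Igf2bp1* was at 3.55 TPM, *Igf2bp2* at 3.60 TPM and *Igf2bp3* at 3.27 TPM, beside means over the 12 libraries of 0.924, 0.698 and 1.04 TPM. *Igf2* was at 38.1 TPM there. Their r with the members score lay between -0.39 and -0.13.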
